A study of Mus musculus with 21 samples.

Results

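A c-MYC peak was listed near the start of 8724 protein-coding genes in fibroblasts that carry Hsf1, with none listed there once Hsf1 had been deleted. These promoters are 40.4% of the 21613 starts of protein-coding genes on chromosomes 1 to 19 and X. They were chosen by position alone: a peak of the wild-type (WT) list lay within 1000 bp of the start, and no peak of the conditional knockout (CKO) list did. Another 4241 starts (19.6%) had a peak in both lists, 128 (0.592%) in the CKO list only and 8520 (39.4%) in neither.

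Binding was mapped by CUT&RUN, which releases DNA next to a protein with an antibody-bound nuclease, in immortalized mouse embryonic fibroblasts (MEFs). Hsf1 WT cells had received ethanol for 7 days and Hsf1 CKO cells 4-hydroxytamoxifen (1 mM as labelled) for 7 days, with 2 libraries each, so that the deletion and the drug cannot be told apart. A single control library was made with IgG on a 1:1 mixture of WT and CKO cells, and the antibody is labelled c-Myc/N-Myc. RNA was sequenced from other cells, MEFs with stable expression of either LacZ or V5-GCN5, after 2 days with 10 nM siRNA, a control (siControl) or one directed at Hsf1 (siHsf1), in 3 libraries per group. These libraries are called triplicates, separate cultures are not mentioned, and p-values cover only the spread of these libraries, which may be technical. The knockdown cells keep some Hsf1 message, and c-MYC peaks of these cells are not analysed here. The series holds 21 samples, of which the siControl and siMyc pairs in plain MEFs are not analysed here.

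c-MYC binds DNA as a dimer with MAX, with highest affinity at the E-box CACGTG and its variant CACGCG, and is bound in growing cells at most active promoters. Its best known targets make ribosomes, nucleotides and proteins. HSF1 is the factor that switches on chaperone genes through heat shock elements, repeats of GAA and its complement. GCN5, encoded by Kat2a, acetylates histones as a subunit of SAGA and ATAC, complexes which c-MYC can recruit.

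Tall WT-only peaks were listed at promoters with and without an E-box. The promoters below are bases -195 to +5 around the RefSeq start (GRCm38.p6), all on the minus strand and read 5′ to 3′, with CACGTG and CACGCG in capitals. The 4 WT-only promoters shown first have the tallest peaks among those with a CACGTG, of 20 steps in Cry1 and D2Wsu81e and 18 in Hps1 and Tmed10 (a step is the unit of peak height explained with the heights). They belong to Cry1, a repressor of the circadian clock (chr10:85185050-85185249), D2Wsu81e, named Spout1 in RefSeq (chr2:30178455-30178654), Hps1, which serves the making of lysosome-related organelles (chr19:42779974-42780173), and Tmed10, a cargo receptor of vesicles between endoplasmic reticulum and Golgi (chr12:85374713-85374912). Nxnl1, a thioredoxin-like gene of photoreceptors (chr8:71566645-71566844), and Tymp, encoding thymidine phosphorylase (chr15:89377032-89377231), are shown as the 2 tallest with neither motif, at 60 and 33 steps. The highest point of the Nxnl1 peak lies outside the stretch shown. The table's promoter of Asmt, whose peak is taller than that of Tymp, holds 250 undetermined bases and is not printed.
Cry1: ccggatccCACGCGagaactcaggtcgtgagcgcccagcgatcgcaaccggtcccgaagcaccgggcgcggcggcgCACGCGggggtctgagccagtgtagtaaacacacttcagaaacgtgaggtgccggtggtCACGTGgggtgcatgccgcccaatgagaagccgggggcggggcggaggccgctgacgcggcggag
D2Wsu81e: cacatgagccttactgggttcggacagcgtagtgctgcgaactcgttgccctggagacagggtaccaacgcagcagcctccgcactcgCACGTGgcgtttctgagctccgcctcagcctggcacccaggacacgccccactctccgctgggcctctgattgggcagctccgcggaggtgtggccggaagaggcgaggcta
Hps1: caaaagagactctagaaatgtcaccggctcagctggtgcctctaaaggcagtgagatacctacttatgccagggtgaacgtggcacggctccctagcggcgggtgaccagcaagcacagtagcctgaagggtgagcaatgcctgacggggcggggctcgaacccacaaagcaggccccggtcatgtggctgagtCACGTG
Tmed10: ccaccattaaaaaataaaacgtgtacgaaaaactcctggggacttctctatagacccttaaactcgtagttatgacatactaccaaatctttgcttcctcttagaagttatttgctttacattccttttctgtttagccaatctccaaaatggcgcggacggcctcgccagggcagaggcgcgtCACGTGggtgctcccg
Nxnl1: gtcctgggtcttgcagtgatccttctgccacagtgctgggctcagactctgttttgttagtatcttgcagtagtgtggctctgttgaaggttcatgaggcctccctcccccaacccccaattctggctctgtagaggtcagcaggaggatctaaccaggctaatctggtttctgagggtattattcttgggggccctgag
Tymp: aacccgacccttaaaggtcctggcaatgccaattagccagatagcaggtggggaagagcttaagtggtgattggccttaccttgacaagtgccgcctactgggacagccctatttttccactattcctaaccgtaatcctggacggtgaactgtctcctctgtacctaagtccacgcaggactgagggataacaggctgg

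The first base of the CACGTG lay at -60 in Cry1, which also holds CACGCG at -187 and -119, at -107 in D2Wsu81e, at -1 in Hps1 and at -11 in Tmed10, counted from the start with no position 0. Sequence was compared over genes at 1 FPKM or more (fragments per kilobase of gene, scaled to library total) in siControl LacZ libraries, where the table of 300-base promoters matched 81.5% of the WT-only genes and 82.5% of those with a peak in both lists. Over all members the match was 78.8%, under the 80% set for such a check, so no value is given for them. CACGTG, read on both strands, was in 310 of 3557 WT-only promoters (8.72%), in 467 of 3165 with a peak in both lists (14.8%) and in 887 of all 8135 matched promoters (10.9%). CACGCG was in 16.3%, 24.4% and 19% of the same sets. Both E-boxes were thus less frequent in the WT-only promoters than over all matched promoters, while the set with a peak in both lists lay above it. All matched promoters include that set, which raises the reference. Only these 300 bases were scanned. Over all starts, the highest point of the peak was within 500 bp for 45.3% of WT-only starts and 70.9% with both peaks. The part of this in the E-box shares was not tested. Genes with no peak matched at 76.9%, also under 80%, so no value is given for them. Whether WT-only promoters hold fewer E-boxes than promoters with no peak is therefore not stated here.

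Other letters differed less. Median GC content was 61% in WT-only promoters, 62.7% in those with both peaks and 61.7% over all, and median CpG per 100 bases was 7, 8 and 7.33. CCAAT was found in 40.6%, 38.8% and 39.8%, GGGCGG in 67.9%, 71.7% and 68.8%, and TATAAA in 6.61%, 5.66% and 6.50%, each on both strands. A heat shock element of 3 units, GAA, TTC and GAA in a row with 2 bases between them or the same on the other strand, was in 14 WT-only promoters (0.394%), in 16 with both peaks (0.506%) and in 32 of all 8135 (0.393%). Within the WT-only set CACGTG went from 7.40% (71 of 960) at peaks of 3 to 6 steps to 10.9% (98 of 898) at peaks of 10 steps or more.

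WT-only promoters carried lower WT peaks than promoters with a peak in both lists. Peak height is the highest coverage that the authors' list gives for each peak. It falls on whole multiples of 1 value in each list, 0.000684 in WT and 0.000361 in CKO, and is given here in these steps. The height of WT-only peaks ran from 3 to 60 steps with a median of 7 (25th to 75th percentile 6 to 9), against 4 to 71 with a median of 12 (9 to 16) where both lists had a peak. Over all peaks of the WT list, at promoters and elsewhere, the median was 6 steps. Median width was 2098 bp against 3042 bp, and median summed coverage 4.35 against 9.13 in the authors' unit. Peaks of 10 steps or more stood at 1570 WT-only starts (18%) and at 3161 with both peaks (74.5%). These are the values on which the lists were called, so they describe the members and test nothing. The lists have no replicate error, since there is 1 per genotype and pooling of the 2 libraries is not stated.

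The share of promoters without a CKO peak fell with the height of the WT peak. Of the 1608 starts whose WT peak reached 3 to 5 steps, 98.3% had no CKO peak, and of the 3709 at 6 to 7 steps 91.6% had none. The share was 74.6% of 2917 at 8 to 9 steps and 49.1% of 2449 at 10 to 12 steps. It was 19.9% of 1700 at 13 to 19 steps and 5.15% of 582 at 20 steps or more. Over all 12965 starts with a WT peak it was 67.3%. The WT list holds 220037 peaks and the CKO list 6386, and a missing CKO peak means that none was called. Coverage in CKO cells at these starts was not analysed here. The lists are on different scales, and their lowest peaks reached 2 steps in WT and 3 in CKO.

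**Figure D1:**
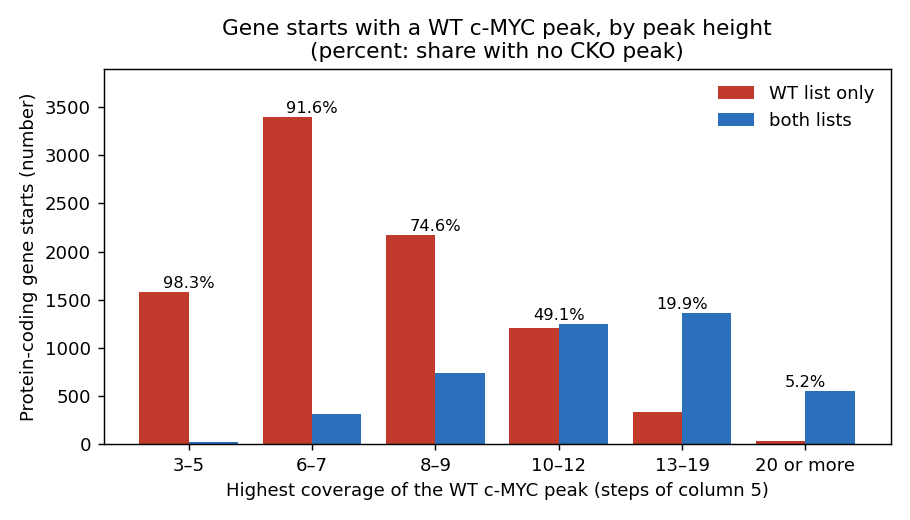
Bars give the number of protein-coding gene starts (y axis) by the height of the tallest WT c-MYC peak within 1000 bp, in steps (x axis), for starts with a WT peak only (red) and with a peak in both lists (blue). The printed percentage is the share with no CKO peak, which goes from 98.3% at 3 to 5 steps to 5.15% at 20 steps or more, drawn rounded.

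Most WT-only peaks covered the gene start, though their highest point was often off it. The start lay inside the peak for 6463 members (74.1%), against 94.1% where both lists had a peak, and the highest point was within 500 bp of the start for 45.3% against 70.9%. The 8724 starts drew on 8190 different peaks: 521 peaks served 2 or more members, 1055 members (12.1%) shared a peak, and 1 peak served 5. For 7932 members (90.9%) the nearest CKO peak was more than 10000 bp away, and 105 had one 1001 to 2000 bp away.

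The tallest members included genes that these cells barely express. Nxnl1 led with 60 steps in a peak of 7802 bp (chr8:71566008-71573809), whose highest point lay at -3637 bp, upstream of the start, and it had a CKO peak 2613 bp away. Next came Iqce, a gene of cilia, with 45 steps, and Asmt, which encodes the last enzyme of melatonin synthesis, with 39 steps in a peak 196 bp from the start. Npff, a neuropeptide gene, reached 34 steps in a peak of 17737 bp. Larp4, whose product binds the poly(A) tail of mRNA, and Tymp reached 33 steps each. Of these 6, only Iqce and Larp4 were above 4 FPKM, with means of 4.17 ± 0.33 (SD, n = 3) and 35.6 in siControl LacZ, and 5 of the 6 had a CKO peak within 5000 bp. In Nxnl1 the siControl LacZ libraries held 0, 0 and 0.0438 FPKM, and in Asmt all 3 were at 0, where 3 counts would be 0.358 to 0.668 CPM (counts scaled to a library size set by spike-in transcripts).

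At the edges of the rule, members lay next to genes left out by a few bases. Satb1 and Ryr3 entered with WT peaks at 1000 and 998 bp, and Adam19 and Spr stayed out with WT peaks at 1001 bp. Ccna2, encoding cyclin A2, and Mea1 entered with CKO peaks at 1016 and 1019 bp, while Zfp46 and Sphk1, with CKO peaks at 996 and 985 bp, count as having both.

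Whether a silent gene had a WT-only peak went with the chromosome it lies on. WT peaks are spread unevenly: 85.8% of chromosome 15, which carries Hsf1 and Myc themselves, lies within 1000 bp of one, as do 59.2% of chromosome 8 and 7.23% of chromosome 12, against 33.4% of the 20 chromosomes together. Of the 169 genes on chromosome 15 listed at 0 FPKM in siControl LacZ, 95.3% had a WT-only peak. The share was 66.8% on chromosome 8 and 59.5% on chromosome 11, and it was 10.1% on chromosome 12. Across the 20 chromosomes this share followed the covered share with Pearson's r = 0.973 and Spearman's rho = 0.923. For genes at 1 FPKM or more the same measures were -0.371 and -0.162. Both shares come from the same peak list, and the points differ in gene content. On chromosome 15 only 25.8% of the genes at 1 FPKM or more were WT-only, and 70.6% of them had a peak in both lists.

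**Figure D2:**
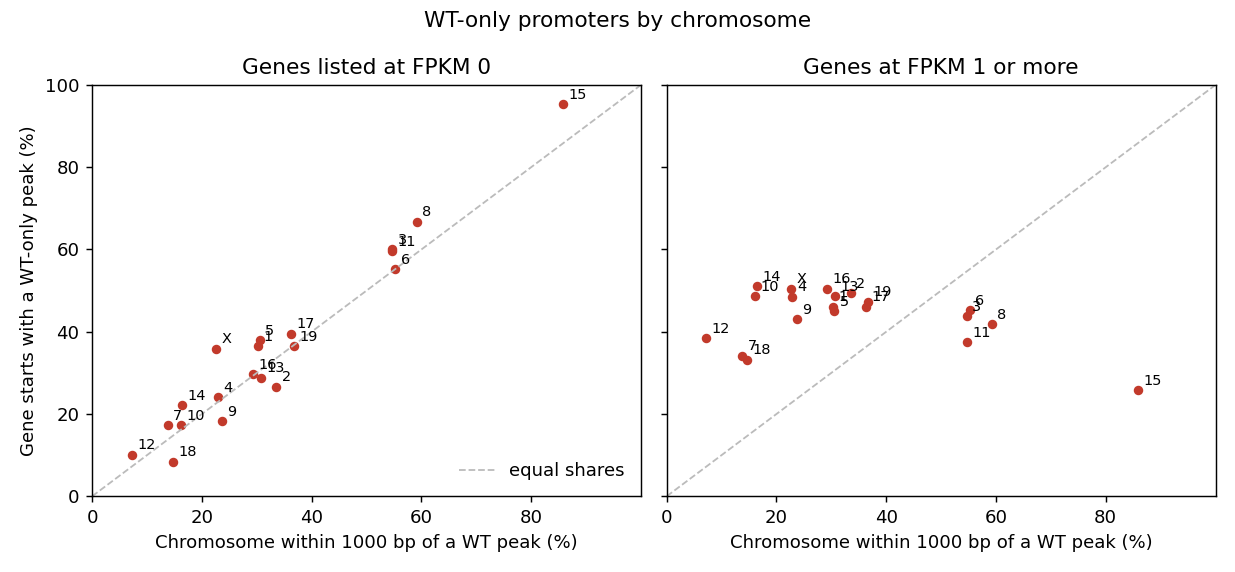
Each point is 1 of 20 chromosomes, with the share of its length within 1000 bp of a WT peak (x axis, %) and the share of its protein-coding starts with a WT-only peak (y axis, %), for genes at 0 FPKM (left) and at 1 FPKM or more (right). The dashed line marks equal shares, and silent genes lie near it from chromosome 12 (7.23% and 10.1%) to chromosome 15 (85.8% and 95.3%).

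The WT-only class stretched over all levels of expression, unlike its neighbours. Of the 7317 genes at 0 FPKM in siControl LacZ, 2480 (33.9%) had a WT-only peak and 0.642% a peak in both lists. The WT-only share was 44.0% above 0 and under 1 FPKM, 46.9% from 1 to under 10, 42.4% from 10 to under 100 and 27.5% at 100 FPKM or more. Over the same bands the share with a peak in both lists went from 8.39% through 28.3% and 44.5% to 63.1%, and the share with none from 47.2% to 8.09%. Median FPKM was 1.01 for the WT-only genes, 14.3 for those with both peaks, 0 for those with none and 0.446 over all. In the WT-only set 50.1% of genes reached 1 FPKM, against 90.5% with both peaks and 20.2% with none. Within it, taller peaks went with more expression: the share at 1 FPKM or more was 35.2% at 3 to 6 steps and 70.1% at 10 to 60 steps.

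**Figure D3:**
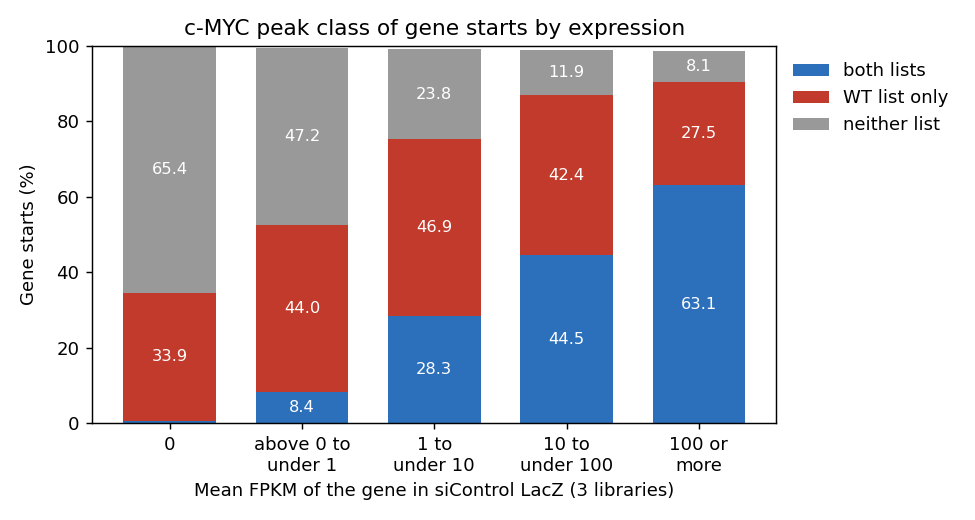
Stacked bars give the share of protein-coding gene starts (y axis, %) with a c-MYC peak in both lists (blue), in the WT list only (red) and in neither (grey) for 5 bands of mean FPKM in the 3 siControl LacZ libraries (x axis). The red share stays between 27.5% and 46.9% while the blue one goes from 0.642% to 63.1%; starts with a CKO peak only are not drawn.

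Membership differed by function. Among the genes of c-MYC's best known programme the WT-only class was the smaller one: it held 16 of 78 cytosolic ribosomal protein genes (20.5%), 6 of 47 ribosome biogenesis genes (12.8%), 4 of 42 translation factors (9.52%), 5 of 32 genes of nucleotide synthesis and 13 of 52 listed MYC targets, against 40.4% of all starts. In those lists 56, 40, 33, 24 and 37 genes had a peak in both. SR and hnRNP splicing proteins (4 of 34) and TRiC and prefoldin subunits (2 of 14), which fold new proteins, were alike. Nuclear genes of the mitochondrion stood apart from these, with 39 of 78 mitochondrial ribosomal proteins (50%) and 38 of 74 respiratory chain subunits (51.4%) WT-only, as did 15 of 32 proteasome subunits. Among 46 interferon response genes matched of 49 listed, 28 (60.9%) were WT-only and 7 had both peaks. Also WT-only were 15 of 28 p53 targets, 19 of 39 extracellular matrix genes and 22 of 39 Hox genes, with 5, 8 and 8 having both peaks. Among mitosis genes 17 of 38 were WT-only and 12 had both peaks, and among DNA replication genes 20 of 41 and 18. These shares are descriptions without a test. Expression differed between lists: median FPKM was 628 for cytosolic ribosomal protein genes and 39.2 for ribosome biogenesis genes. Of all starts at 100 FPKM or more 27.5% were WT-only and 63.1% had both peaks. From 10 to under 100 FPKM the shares were 42.4% and 44.5%. The part of expression in the shares was not tested.

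Among chaperones 12 of 38 were WT-only and 22 had both peaks. Of the 6 heat shock factor genes and their binder, Hsf2, Hsbp1, Hsf4 and Hsf5 were WT-only, whereas Hsf1 had a peak in both lists, 21 steps high in WT. Myc and Kat2a also had peaks in both lists. Of the MYC, MAX and MXD network 3 of 13 were WT-only, among them Mxd4 and Mga, partners of MAX that oppose MYC, and of SAGA and ATAC subunits 5 of 28, among them Tada1 and Yeats2. Families known mainly from other tissues were in the class as well: 45 of 49 keratins (91.8%), whose genes cluster on chromosomes 11 and 15, 107 of 327 vomeronasal receptors (32.7%) and 185 of 1116 olfactory receptors (16.6%). Among the members 4 keratins and none of these receptors reached 1 FPKM in siControl LacZ.

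Total gene counts were 7224496 to 8162787 in LacZ and 3693554 to 4274852 in GCN5 libraries, so that depth and line coincide. Fibroblast markers were present, 11 of 12 at a mean of 1 FPKM or more. Summed pluripotency markers went from 14.5 to 15.4 FPKM in siControl LacZ to 25.1 to 26.7 in siHsf1 LacZ, with 5 of the 8 at 0 in every library. Only 1 of the 8 reached a mean of 1 FPKM. Summed neuronal markers, also with 1 of 8 at that mean, were lower after siHsf1. They stood at 9.09 to 9.95 FPKM in siControl LacZ, 6.84 to 7.63 in siHsf1 LacZ and 22.9 to 27.3 in siControl GCN5. Levels below are CPM, with library size set by the ERCC spike-in transcripts (spike-scaled CPM), whose share varied between 0.143% and 0.362% of counts and was highest in siHsf1 LacZ library 2. The siControl libraries are labelled as holding ERCC mix 1 and the siHsf1 libraries mix 2, in which the amounts of most transcripts differ. The ratios did not separate those from the transcripts listed as equal in both mixes. Over the 38 transcripts with 100 or more counts in LacZ, the log2 ratio of their shares in siControl and siHsf1 ran from -0.50 to 0.47 around the median, and over 33 in GCN5 from -0.42 to 0.68. In LacZ the median was -0.04 for the 8 listed as equal and 0.01 for the 30 others. In GCN5 it was 0.01 for 7 and -0.02 for 26. Scaling by all 92 transcripts in place of the 23 listed as equal in both mixes gave 255 members that fell and 51 that rose in LacZ, and 19 negative and 7 positive interactions. Hsf1, the targeted gene, stood at 208, 121 and 163 in siControl LacZ, against 75.4, 37.0 and 45.2 after siHsf1. Its log2 fold change was -1.65 ± 0.33 (SE), with an adjusted p of 0.00012 (edgeR quasi-likelihood test, Benjamini-Hochberg). In GCN5 cells it was 158, 92.6 and 131 against 68.2, 73.9 and 58.5, a log2 fold change of -0.93 ± 0.32 with an adjusted p of 1.00, and -0.88 ± 0.08 with an adjusted p of 8.34e-07 under TMM scaling. TMM sets the scale on the assumption of a stable majority of genes. Spike-in scaling moved the median log2 fold change of the 11061 tested protein-coding genes to -0.34 for siHsf1 in LacZ, -0.04 in GCN5 and 0.31 for the interaction, while TMM left it at 0.04, -0.00 and -0.02. Results are given under both, and changes of a class relative to these medians.

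After Hsf1 knockdown in LacZ cells, genes with a WT-only peak lay close to the median of all genes. Of 12187 genes tested, 4825 were members, 55.3% of the class. Of these, 191 (3.96%) fell and 48 (0.995%) rose, where 6.03% of all tested genes fell and 0.993% rose. Among the 3983 tested genes with a peak in both lists 352 (8.84%) fell and 18 (0.452%) rose, and among the 2138 with no peak 76 (3.55%) fell and 45 (2.10%) rose. The median log2 fold change, relative to all tested protein-coding genes, was 0.03 for WT-only genes, -0.07 for those with both peaks and 0.06 for those with none. With TMM scaling 735 members fell (15.2%) and 1192 rose (24.7%), against 19.5% and 21.1% of all tested genes, with relative medians of 0.03, -0.07 and 0.07. The counts of members that fell depended on single libraries: without siHsf1 LacZ library 1 it was 1074, without siControl LacZ library 2 it was 397, and without siControl LacZ library 1 or 3 it was 40 or 72. Without siHsf1 LacZ library 2 or 3 it was 48 or 32, and without siControl GCN5 library 3 or siHsf1 GCN5 library 1 or 2 it was 111, 113 or 114. More members rose than fell without siControl LacZ library 1 (46 against 40) or siHsf1 LacZ library 2 (65 against 48). The relative median stayed at 0.03 whichever of the 12 libraries was left out. With a term for the replicate number in the model (replicate block) more members fell and more rose, as given in the last section.

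The counts of the classes were further apart at high expression. No test of the classes against each other was made, since the members were chosen with results of these data known. The bands rest on siControl LacZ libraries, which also enter the fold change. Among genes at 100 FPKM or more, 16 of 180 WT-only genes fell (8.89%) and 109 of 413 with both peaks (26.4%), with medians relative to all genes of -0.10 and -0.31. Of the 53 with no peak 5 fell (9.43%), and 20.5% of all tested protein-coding genes in this band did. From 10 to under 100 FPKM, 87 of 2013 (4.32%) and 176 of 2112 (8.33%) fell, against 23 of 565 with no peak (4.07%). From 1 to under 10 FPKM, 79 of 2155 (3.67%) and 60 of 1302 (4.61%) fell, against 39 of 1092 with no peak (3.57%). In each of these bands the WT-only share lay nearer to that with no peak than to that with both peaks. With TMM scaling 63 of the 180 highly expressed WT-only genes fell and 40 rose, against 261 and 44 of the 413. The difference between WT-only genes and those with both peaks therefore had the same direction in each of these bands under spike-in scaling.

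Within each of 4 strata of WT peak height, from 6 steps up, a smaller share of the WT-only genes fell. Peaks of 3 to 5 steps were not compared. With peaks of 13 steps or more, 17 of 292 tested WT-only genes fell (5.82%) and 207 of 1818 with both peaks (11.4%), with median log2 fold changes of -0.32 and -0.46. At 10 to 12 steps, 39 of 882 (4.42%) and 78 of 1159 (6.73%) fell. At 8 to 9 steps the counts were 53 of 1428 and 51 of 687, and at 6 to 7 steps 55 of 1677 and 14 of 294. With TMM scaling 57 of the 292 fell and 64 rose, against 634 and 300 of the 1818. The TMM counts were 141 and 214 against 296 and 236 at 10 to 12 steps, 227 and 353 against 156 and 147 at 8 to 9 steps, and 243 and 433 against 61 and 77 at 6 to 7 steps. Heights were not equal inside the strata, the median at 13 steps or more being 14 steps for WT-only starts and 16 with both peaks. Median FPKM also differed, being 6.96 against 17.2 at 13 steps or more. The parts of height and expression in the difference were not tested. Inside the WT-only class 3.87% fell at peaks of 3 to 6 steps and 4.77% at 10 steps or more, and 1.93% and 0.341% rose.

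**Figure D4:**
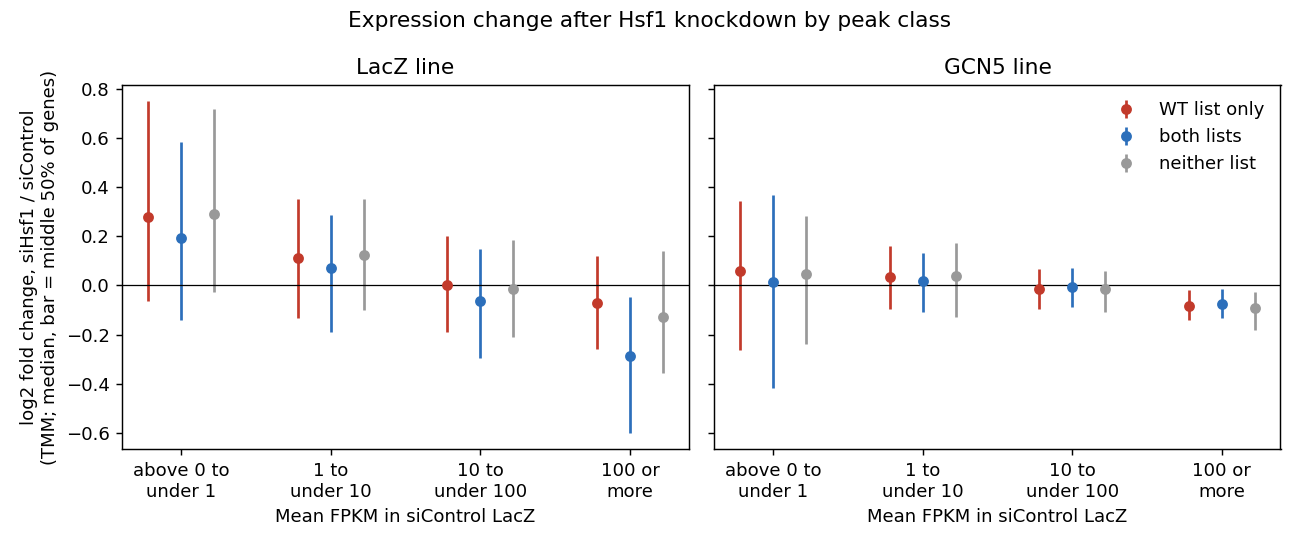
Points give the median log2 fold change of siHsf1 against siControl under TMM scaling (y axis) in the LacZ line (left) and the GCN5 line (right), by band of mean FPKM in siControl LacZ (x axis), for genes with a c-MYC peak in the WT list only (red), in both (blue) and in neither (grey); bars run from the 25th to the 75th percentile of the genes and are not an error. At 100 FPKM or more in LacZ the median is -0.07 for WT-only genes and -0.29 for those with both peaks, while in GCN5 the medians are -0.08 and -0.08.

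The members that fell most were low to moderately expressed genes of several kinds. Reep6, which shapes the endoplasmic reticulum, went from 19.1, 11.3 and 18.2 spike-scaled CPM in the siControl LacZ libraries to 2.53, 2.12 and 1.96 in siHsf1 LacZ. The groups do not overlap, and the log2 fold change was -2.88 ± 0.41 (SE, n = 3 libraries per group, edgeR adjusted p = 2.02e-09). Eda2r, a receptor of the TNF receptor family and a p53 target, went from 29.8, 17.5 and 21.9 to 7.22, 2.28 and 4.15, a change of -2.39 ± 0.36 (edgeR adjusted p = 3.76e-08). Psrc1, a spindle protein and p53 target, went from 39.2, 17.9 and 25.8 to 9.93, 5.03 and 5.64, a change of -2.02 ± 0.35 (edgeR adjusted p = 2.55e-06). In each of these genes every siHsf1 library lay under every siControl library.

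Gm3776, a predicted gene whose reads may be shared with close copies, fell by 2.39 on the log2 scale. Dusp9, a phosphatase of MAP kinases, fell by 2.03 and Plvap, known from the diaphragms of endothelial fenestrae, by 1.94. F2rl1, a protease-activated receptor, fell by 1.87 and Fam212b by 1.80. The adjusted p of these 5 lay between 2.26e-05 and 0.00247 (edgeR), and that of Fam212b was 0.0672 without siHsf1 LacZ library 3. All 8 named genes that fell also passed with TMM scaling, with log2 changes of -2.41 for Reep6, -2.05 for Eda2r and -1.61 for Psrc1. Their WT peaks were 4 to 11 steps high, and that of Eda2r lay 884 bp from the start.

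The members that rose most were mainly antiviral genes. Usp18, which removes the ubiquitin-like protein ISG15 from its targets, went from 14.5, 7.75 and 10.1 spike-scaled CPM in siControl LacZ to 107, 76.1 and 79.4 in siHsf1 LacZ. Its log2 fold change was 3.04 ± 0.35 (SE, n = 3 per group, edgeR adjusted p = 1.35e-14). Irf7, a transcription factor of the interferon response, went from 40.5, 26.8 and 31.4 to 221, 139 and 176, a change of 2.44 ± 0.34 (edgeR adjusted p = 5.02e-10). Every siHsf1 library was above every siControl library in both genes. Xaf1 went from 17.8, 10.7 and 12.3 to 114, 73.9 and 95.8, a change of 2.80 ± 0.34 (edgeR adjusted p = 5.95e-13).

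Ifit3b, from a family of antiviral RNA-binding proteins with close copies that may share reads, went from 3.34, 1.55 and 2.10 to 27.6, 14.9 and 21.4, a change of 3.23 ± 0.42 (edgeR adjusted p = 2.38e-11). Oas3, an oligoadenylate synthetase that senses double-stranded RNA, rose by 2.39, Gbp6, a guanylate-binding protein, by 2.43 and Sp100, a nuclear body protein, by 2.23. Oas3 and Gbp6 also belong to families of near copies. Omd, a proteoglycan of the extracellular matrix and no interferon gene of the list, went from 2.45, 2.50 and 1.65 to 24.4, 8.02 and 16.8, a change of 2.88 ± 0.43 (edgeR adjusted p = 1.78e-08). All 8 passed with TMM scaling too, at log2 changes of 3.46 for Usp18, 2.82 for Irf7 and 3.59 for Ifit3b. Their WT peaks were 6 to 16 steps high, Ifit3b (16) and Sp100 (14) having the tallest.

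**Figure D5:**
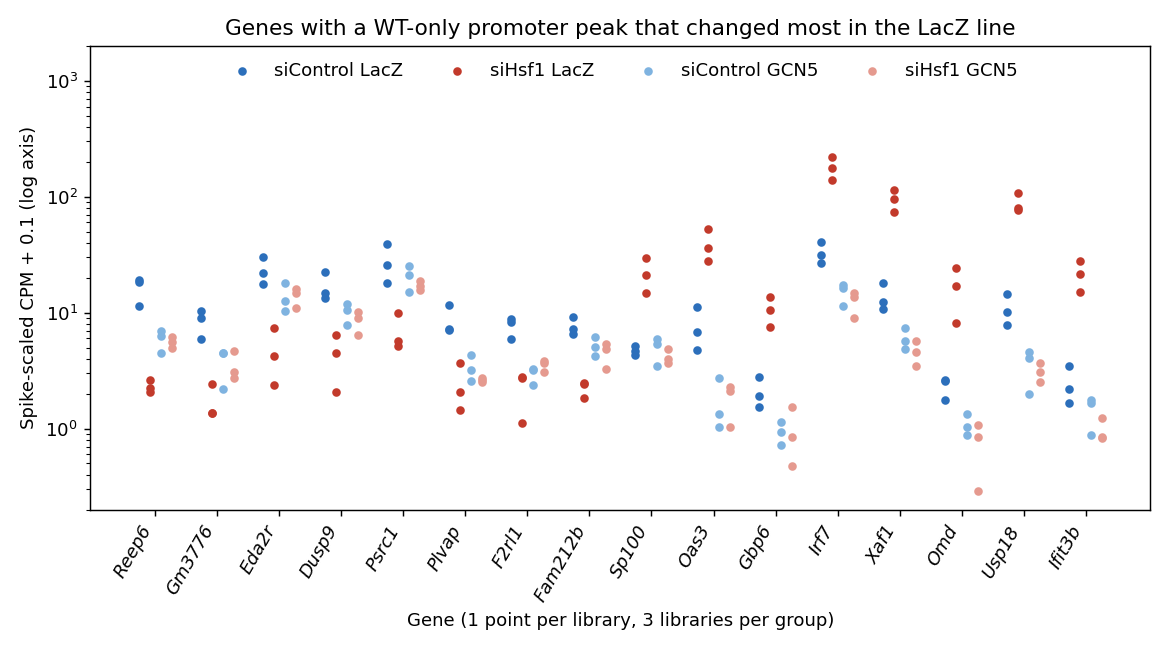
Points give the spike-scaled CPM plus 0.1 (y axis, log axis) of each library, 3 per group, for the 8 WT-only genes that fell most and the 8 that rose most in the LacZ line (x axis). The 16 genes were chosen so that dark blue and dark red points (siControl and siHsf1 LacZ) do not overlap, and the pale points of the GCN5 line overlap for all 16.

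As a list, 19 of 25 tested WT-only interferon genes rose and none fell, with a median log2 fold change of 1.71 against -0.34 over all tested genes. All 25 rose with TMM scaling (median 2.09), and leaving out any of the 12 libraries left 16 to 20. Stat2, which carries the interferon signal to the nucleus, rose by 1.41 and Irf9, its partner, by 1.34. Ddx58 and Dhx58, sensors of viral RNA, rose by 1.14 and 1.25, and Dhx58 had a WT peak of 20 steps. Of the 7 interferon genes with peaks in both lists 3 rose (7 with TMM scaling). Isg15, Igtp and Psmb8 were members but too low to be tested. Macrophage markers moved in the same direction, their summed FPKM going from 16.9 to 17.3 in siControl LacZ to 32.7 to 37.0 in siHsf1 LacZ. Only 2 of those 8 markers reached a mean of 1 FPKM, and Adgre1 and Itgam were listed at 0 in all libraries.

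Ribosomal protein genes fell in both classes. Of the 16 with a WT-only peak 11 fell (14 with TMM scaling), with a median log2 fold change of -1 (-0.64), and of the 56 with both peaks 45 fell (53), with a median of -1.04 (-0.70). Rps13 went from 358, 249 and 147 spike-scaled CPM to 123, 64.6 and 92.5, a change of -1.43 ± 0.33 (edgeR adjusted p = 0.00126), and Rpl36a from 372, 266 and 262 to 163, 90.1 and 125, a change of -1.25 ± 0.32 (edgeR adjusted p = 0.00604). Both groups of libraries were apart in each gene. The count of 11 depended on single LacZ libraries: it was 0 or 4 without siControl LacZ library 1 or 3, 2 or 1 without siHsf1 LacZ library 2 or 3, and 15 without siHsf1 LacZ library 1. Without siControl GCN5 library 3 it was 6, and without siHsf1 GCN5 library 1 or 2 it was 7.

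Smaller numbers of the other genes of the MYC programme passed. Of 6 ribosome biogenesis genes Gnl2, a nucleolar GTPase, fell by 0.96 (5 fell with TMM scaling), and 34 of 40 with both peaks fell (38), with medians of -0.76 and -1.22. Of 13 MYC targets 4 fell, the arginine methyltransferase Prmt5 by 1.12, Noc4l by 1.08, the mitotic kinase Plk1 by 0.99 and Ndufaf4 by 0.96, against 22 of 37 with both peaks (6 and 33 with TMM scaling). Of 5 nucleotide synthesis genes Prps1, which makes the ribose donor of nucleotides, fell by 1.37, against 13 of 24 with both peaks (3 and 23 with TMM scaling). Without siHsf1 LacZ library 1 these counts of WT-only genes were 5, 8 and 3, and without siControl LacZ library 2 they were 3, 5 and 2. The MYC target count was 0 to 2 without siControl LacZ library 1 or 3, siHsf1 LacZ library 2 or 3, siControl GCN5 library 3 or siHsf1 GCN5 library 2. Gnl2 did not pass when any of those 6 libraries, or siHsf1 GCN5 library 1 or 3, was left out. These lists overlap in part, as Plk1 is also a mitosis gene. None of 4 translation factors and 13 aminoacyl-tRNA synthetases passed (edgeR). At an unadjusted p under 0.05 there were 3 and 6, by DESeq2 0 and 1, and 3 and 7 fell with TMM scaling. Without siHsf1 LacZ library 1 edgeR called 3 and 10, and without siControl LacZ library 2 it called 1 and 3.

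Chaperones and cell cycle genes gave smaller groups. Of 11 tested WT-only chaperones 4 fell: Hspb1, a small heat shock protein, by 1.38, Trap1, the mitochondrial HSP90, by 1.07, Hspb8 by 1.03 and Hspa4l, a relative of HSP110, by 1.50. Hspa4l did not pass with TMM scaling (-0.89, adjusted p = 0.349), and its siControl LacZ libraries held 16.0, 8.70 and 2.25 spike-scaled CPM against 2.71, 5.03 and 1.38. Those groups overlap. Of 17 mitosis genes 5 fell, namely Aurkb by 1.10, Plk1 by 0.99, Nusap1 by 0.98, Cenpe by 0.95 and Ccnb1 by 0.94, and with TMM scaling 16 fell and 1 rose. The mitosis count was 0 without siControl LacZ library 1 or 3 or siHsf1 LacZ library 2 or 3, 12 without siControl LacZ library 2, 16 without siHsf1 LacZ library 1, and 1 to 3 without a GCN5 library. The chaperone count was 1 or 2 without siControl LacZ library 1 or 3, 2 or 0 without siHsf1 LacZ library 2 or 3, and 6 without siHsf1 LacZ library 1. None of 20 DNA replication genes passed (edgeR; 1 at an unadjusted p under 0.05, 0 by DESeq2, 3 lower without siHsf1 LacZ library 1). With TMM scaling 3 fell and 5 rose, and their median changed sign, from -0.31 under spike-in scaling to 0.06 under TMM.

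Of 15 p53 targets 6 fell and none rose. Beside Eda2r and Psrc1 these were Cdkn1a, the cell cycle inhibitor p21, by 1.71, Ccng1 by 1.60, the nuclease Aen by 1.29 and Zmat3 by 1.04. With TMM scaling 10 fell and 4 rose, and leaving out 1 library gave 4 to 10, the highest without siHsf1 LacZ library 1 and the lowest without siControl LacZ library 1 or siHsf1 LacZ library 3. Of 10 NRF2 targets, which answer oxidative stress, Gsta4 fell by 1.34, Nqo1 by 1.10 and Srxn1 by 1.07. With TMM scaling 6 of the 10 fell, and the count of 3 was 5 without siHsf1 LacZ library 1, 1 without siControl LacZ library 1 or 3 or siHsf1 LacZ library 2, and 0 without siHsf1 LacZ library 3.

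Few genes of the large mitochondrial groups passed, while their medians lay under that of all genes. Mrps22 and Mrps27 fell among 38 tested mitochondrial ribosomal proteins (median -0.58), and Ndufa12 among 38 respiratory chain subunits (median -0.49), against -0.34 over all genes. The median FPKM of these members was 30.2 and 102. Over all tested protein-coding genes the median change was -0.40 from 10 to under 100 FPKM and -0.57 at 100 FPKM or more. The part of expression level in these medians was not tested. Ndufa12 did not pass with TMM scaling (adjusted p = 0.393). With TMM scaling 14 and 9 of the 38 each fell, where 19.5% of all tested genes did, with medians of -0.22 and -0.13 against 0.04 over all genes. In the bands of 10 to under 100 FPKM and 100 FPKM or more the TMM median of all genes was -0.03 and -0.21. With TMM scaling 27.0% and 54.0% of the tested protein-coding genes in these bands fell. At an unadjusted p under 0.05 there were 15 and 6. Without siHsf1 LacZ library 1 the edgeR counts were 19 and 11, without siControl LacZ library 2 they were 4 and 2, and without siControl LacZ library 1 or 3 or siHsf1 LacZ library 3 both were 0. They were also 0 without siControl GCN5 library 3 or siHsf1 GCN5 library 1 or 2. Without siHsf1 LacZ library 2 they were 0 and 1, and without siHsf1 GCN5 library 3 they were 1 and 0. None of 15 proteasome subunits passed (edgeR; 7 at an unadjusted p under 0.05, 0 by DESeq2; median -0.57; 8 without siHsf1 LacZ library 1), and 9 fell with TMM scaling. Their median FPKM was 123.

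Matrix, lysosome and immediate early genes passed only with TMM scaling. It called 12 of 18 extracellular matrix genes higher, 16 of 19 lysosome genes and 5 of 5 immediate early genes, with median log2 fold changes of 0.47, 0.46 and 0.62. With spike-in scaling edgeR called none of these, and the medians were 0.11, 0.08 and 0.23. At an unadjusted p under 0.05 there were 3 matrix genes and 0 of the others, and DESeq2 called 0. Npc2, a cholesterol carrier of lysosomes, held 420, 253 and 293 spike-scaled CPM in siControl LacZ against 597, 316 and 440 after siHsf1, so that its groups overlap. The fibroblast markers moved alike, their summed FPKM being 2215 to 2406 in siControl LacZ and 2942 to 3157 in siHsf1 LacZ, and their part in the matrix result was not tested. Among 8 tested actin and SRF targets Myl9, a myosin light chain, rose by 2.20 from 5.56, 4.53 and 4.66 to 29.6, 16.2 and 22. Among 4 tested keratins Krt19 fell by 1.12 and Krt13 by 1.42, and both passed with TMM scaling. Their count was 0 to 3 when 1 library was left out.

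In GCN5 cells almost no member changed. With spike-in scaling 1 of 4825 fell and 0 rose (edgeR), where 0.00821% of all tested genes fell and 0.0328% rose. At an unadjusted p under 0.05 there were 21 lower and 18 higher, and DESeq2 called 0 of both. With TMM scaling 4 fell and 2 rose, where 0.0985% and 0.0656% of all tested genes did. The 4 were Ccnd3, which encodes cyclin D3, Ccndbp1, Zbed3 and Habp4, with log2 changes of -0.89, -0.65, -0.63 and -0.57, and the 2 were Ptgs2, a cyclooxygenase (0.69), and Txnip, which binds thioredoxin (0.61). The gene that fell, Hspa4l, held 14.0, 10.8 and 10.2 spike-scaled CPM in siControl GCN5 and 1.20, 2.25 and 1.12 in siHsf1 GCN5. These groups do not overlap, and the log2 fold change was -2.94 ± 0.47 (edgeR adjusted p = 1.92e-06). It did not pass with TMM scaling, at -2.92 ± 0.88 (adjusted p = 0.396), nor by DESeq2 (adjusted p = 0.69). The median of the members relative to all genes was 0.00. The 25 interferon genes had a median of -0.21, and edgeR called 0 of them at adjusted and unadjusted p alike, as did DESeq2 after adjustment.

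The effect of siHsf1 differed between the lines for 18 members, as tested by the interaction. Its log2 value is the change in GCN5 minus that in LacZ, and it was negative for 14 and positive for 4, where 0.222% and 0.172% of all tested genes were called. With TMM scaling 601 were negative and 392 positive, where 10.9% and 11.0% of all tested genes were called. Under spike-in scaling with a replicate block more were positive than negative, as given in the last section. The median of the members relative to all genes was -0.03, against 0.05 with both peaks and -0.06 with none. The 14 were Usp18, Irf7, Xaf1, Ifit3b, Ifit1, Oas1a, Oasl2, Rtp4, Sp100, Ddx60, Omd, Myl9, Fabp4 and Cxcl12, and the 4 Reep6, Eda2r, Pofut2 and Ggcx.

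Reep6 showed the difference most plainly among the positive ones. It held 6.24, 4.35 and 6.80 spike-scaled CPM in siControl GCN5 and 6.02, 5.51 and 4.87 in siHsf1 GCN5, so that the groups overlap, and the interaction was 2.80 ± 0.58 (edgeR adjusted p = 0.00085). Its siControl level in GCN5 cells lay under that of all siControl LacZ libraries. Eda2r held 17.8, 10.2 and 12.6 against 15.9, 14.8 and 10.9 in GCN5, with an interaction of 2.43 ± 0.50 (edgeR adjusted p = 0.000903). Pofut2, which adds fucose to secreted proteins, went from 122, 77.3 and 97.5 to 41.9, 20.3 and 30.4 in LacZ and from 91.4, 63.4 and 71.6 to 84.3, 78.6 and 66.1 in GCN5. Its interaction of 1.70 ± 0.46 was at the threshold (edgeR adjusted p = 0.0498) and missed it without 9 of the 12 libraries, with adjusted p up to 0.275.

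Among the negative ones, antiviral genes were low in both GCN5 groups. Usp18 held 1.87, 3.94 and 4.45 spike-scaled CPM in siControl GCN5 and 3.61, 3.01 and 2.44 in siHsf1 GCN5, with an interaction of -3.26 ± 0.56 (edgeR adjusted p = 9.11e-06). Xaf1 held 5.61, 4.77 and 7.32 against 5.54, 4.51 and 3.37, with an interaction of -3.21 ± 0.52 (edgeR adjusted p = 2.47e-06). All GCN5 libraries lay under all siControl LacZ libraries in both genes, and the GCN5 groups overlap. Irf7 held 17.2, 11.4 and 16.2 against 14.7, 13.5 and 8.81, and its interaction was -2.72. Ifit3b was at 1.56, 1.66 and 0.784 against 0.723, 0.751 and 1.12, near the level of 3 counts (0.562 to 0.936 in GCN5 libraries), with an interaction of -3.82 ± 0.74 (edgeR adjusted p = 0.000292). In all, 9 of the 25 tested interferon genes were called (24 with TMM scaling, 11 by DESeq2). Their number was 7 without siControl LacZ, siHsf1 LacZ or siHsf1 GCN5 library 3, 15 without siControl LacZ library 1 and 18 without siHsf1 LacZ library 2.

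Omd was low in GCN5 cells as well, at 0.936, 1.24 and 0.784 in siControl GCN5 and 0.963, 0.751 and 0.187 in siHsf1 GCN5, with an interaction of -3.59 ± 0.82 (edgeR adjusted p = 0.00582). It missed the threshold without siControl GCN5 library 2 (adjusted p = 0.119) or siHsf1 GCN5 library 3 (0.0965). Fabp4, a fatty acid carrier, had an interaction of -6.33 without a call in LacZ (1.27, adjusted p = 0.126). Over all members the negative calls numbered 28 without siHsf1 LacZ library 2, 24 without siControl LacZ library 1, 9 without siControl LacZ library 3 and 8 without siHsf1 GCN5 library 3. The positive ones numbered 76 without siHsf1 LacZ library 1, 17 without siControl LacZ library 2, 7 without siHsf1 GCN5 library 1 and 3 to 6 otherwise. Line and depth coincide here, and the knockdown differed too. Hsf1 itself had a log2 fold change of -1.65 in LacZ and -0.93 in GCN5. Its interaction was 0.72 with spike-in scaling, without a call, and 0.41 with TMM scaling, where it was called. The parts of line, depth and strength of knockdown in the difference cannot be told apart.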

How the data were processed

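RNA was sequenced in 12 libraries (3 per group) and c-MYC binding mapped by CUT&RUN. Per the submitters' processing notes, reads were aligned with HISAT2 or Bowtie2 to GRCm38 (mm10), peaks were called with SEACR and expression was tested with DESeq2. Their versions were not stated in what was used here. The deposited RNA table holds raw counts of 41608 genes and 92 ERCC transcripts per library and the authors' FPKM values, whose implied totals were 0.984 to 1.05 times the count sums. The deposited peak lists, 1 per genotype, give a score (coverage summed over the peak) and the highest coverage signal of each peak, in a scaling not stated in the files.

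The start of a gene was its first base in the table on the plus strand and its last on the minus strand. Genes with a count of 10 or more by edgeR's filter were tested with edgeR 4.0.16 in R 4.3.3 (robust quasi-likelihood, 4 group means, 8 residual degrees of freedom, two-sided, Benjamini-Hochberg over 12187 genes, threshold 0.05). Library sizes came from the 23 ERCC transcripts of subgroup B, taken as equal in mixes 1 and 2, which are labelled for siControl and siHsf1 libraries respectively. The membership of subgroup B was taken from general knowledge of the product and not from a file. TMM counts stand beside the main ones. DESeq2 1.42.0, a replicate block, other windows and leaving out each library were alternatives, and limma 3.58.1 came with edgeR. Python 3.11.15 with pandas 2.3.3, numpy 2.4.6 and matplotlib 3.10.9 joined and drew the data. The fit and the distances were tested on simulated data. Replicate numbers were not taken as pairs, since correlations of deviations ran from -0.07 to 0.12 under TMM scaling. That scaling takes out shifts shared by all genes of a library. The check therefore could not see whether the spike-in share goes with the replicate number. Promoter sequence came from a RefSeq table of 250 bases before to 50 after each start, which is not complete.

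The members and the 34 gene and 7 marker lists were chosen with earlier results of these data known. Genes named were the 6 tallest peaks, the 8 largest changes each way in LacZ among called genes with mean log2 CPM of 2 or more and groups that do not overlap, up to 4 each way in GCN5 and the interaction, up to 2 per list, the genes at the edges of the window, and Hsf1, Myc and Kat2a. Further list members, the other interaction genes and those called by TMM in GCN5 were chosen after their values were seen.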

Additional observations from a re-analysis of the deposited data

Results flagged for a closer look

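The effect of siHsf1 differed between the LacZ and GCN5 lines, by the edgeR interaction test, for 18 of the 4825 tested genes with a WT-only peak. Of the members 0.290% were called negative and 0.0829% positive, near the 0.222% and 0.172% of all tested genes. The count is thus no trait of the members. Among the named ones the change in GCN5 minus that in LacZ, on the log2 scale, was 2.80 for Reep6, 2.43 for Eda2r and 1.70 for Pofut2. It was -3.82 for Ifit3b, -3.59 for Omd, -3.26 for Usp18 and -3.21 for Xaf1.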

How the results depend on the processing

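Under the alternatives run, no sign changed among the 24 calls of named genes that were followed or among the relative medians of the members. Further genes named above are not among these 24. The balance of calls did: more members fell than rose in LacZ with spike-in scaling, and more rose with TMM scaling. Among members in LacZ, 735 fell and 1192 rose with TMM scaling, 123 fell with no filter on low counts, and 22 rose among those with a peak at or above the members' median height. In GCN5, 4 fell and 2 rose with TMM scaling, 0 fell by DESeq2, 2 rose with no filter, and 0 fell among members at 1 FPKM or more. For the interaction, TMM scaling gave 601 negative and 392 positive calls, all 92 ERCC transcripts 7 positive, peaks at or above the median height 7 negative and 2 positive, and starts inside a peak 9 negative. The replicate block gave 1130 lower and 127 higher in LacZ, 2 and 2 in GCN5 and 54 and 218 for the interaction, turning the balance of the latter. The numbers were not taken as pairs, although the spike-in share was lowest in library 1 and highest in library 2 in 3 of the 4 groups. With the block and TMM scaling these were 765 and 1237, 8 and 5, and 632 and 425. The relative median in LacZ was 0.0205 with no filter and 0.0162 at 1 FPKM or more. That of the interaction was -0.0187 with no filter, -0.0153 at or above the median height and -0.0159 at 1 FPKM or more. The restrictions to 1 FPKM and to starts inside a peak were chosen after seeing the data. Leaving out 1 library gave 32 to 1074 lower and 32 to 65 higher in LacZ, with relative medians of 0.0254 to 0.0320. In GCN5 it gave 1 to 5 lower and 0 to 4 higher, with medians of 0.0032 to 0.0062, and for the interaction 8 to 28 and 3 to 76, with medians of -0.0307 to -0.0207. Of 288 calls of named genes, 276 kept their side of the threshold with 1 library left out. The member count was 7899 within 500 bp, 9989 within 2000 bp and 8377 with no CKO peak within 5000 bp. Peak lists without replicates and 3 libraries per group limit the precision.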
